A study of Mus musculus with 4 samples.

Results

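The 39 genes described here make up an epithelial set: adhesion molecules, keratins, claudins and other junction proteins, a membrane protease system and the regulators that go with them. They were chosen by gene symbol, all 39 were found, and they stand among 25239 symbols in the tables. Cochleovestibular ganglia (CVG), which hold the first hearing and balance neurons next to the developing inner ear, were dissected from mouse embryos at embryonic day 11.5 and frozen. Each of 4 genotype labels had 1 library: control, Isl1CKO (CKO taken as conditional knockout), Pou4f1KO (Pou4f1 knockout) and DKO (both genes). The Cre driver, the alleles carried by the control and the number of embryos per library are not given in the sources used here. No value has a replicate check, and higher or lower refers to these libraries.

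Epithelial cells are held together by E-cadherin and EpCAM at adherens contacts, by claudins and tricellulin at tight junctions, and by desmosomes anchored to keratins. Simple epithelia such as the otic vesicle carry the KRT8 and KRT18 pair, whereas the basal layer of stratified epithelia carries KRT5, KRT14 and the factor p63. GRHL2, OVOL2 and the splicing factors ESRP1 and ESRP2 maintain the epithelial state, and ZEB and SNAI repressors oppose it. Neurons of the ganglion leave the otic epithelium early and switch such genes off. A dissected ganglion was not sorted, so its RNA can hold otic epithelium, surface ectoderm and other neighbours of the neurons. In such bulk tissue, fewer cells of a type and less RNA per cell cannot be told apart.

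Sequence upstream of these genes was examined first. RefSeq promoter windows (build GRCm38.p6) were found for 24 of the 39 genes, and the 250 bases before the annotated start were searched on both strands. The E-box CAGGTG, the letters to which ZEB and SNAI proteins are known to bind, was present for 17 of the 24 genes (70.8%), against 19.4% of all 27025 genes with a window and 18.5% of the 11524 that entered the comparisons. The grainyhead-like motif AACCNGTT was found for 1 member, Rab25, and for 540 of the 27025 genes. The AP-2 motif GCCNNNGGC was found for 6 of 24 members (25.0%, against 15.4% of all genes and 23.9% of compared genes). The SP1 motif GGGCGG was found for 13 of 24 (54.2%, above the 35.4% of all genes and below the 63.5% of compared genes). Median GC content of the windows was 59.2% for members, 52.8% for all genes and 61.2% for compared genes, with 8.5, 6 and 17 CpG per window. These are letter matches and not measured binding. The shares describe genes chosen as epithelial, and their relation to the differences between libraries was not tested. The promoters of 6 genes with an E-box are printed 5′ to 3′ on the gene's strand. Capitals mark CAGGTG or its reverse complement and, in Rab25, the grainyhead-like match at 102 bases upstream.
Epcam (chr17:87635729-87635978, plus strand): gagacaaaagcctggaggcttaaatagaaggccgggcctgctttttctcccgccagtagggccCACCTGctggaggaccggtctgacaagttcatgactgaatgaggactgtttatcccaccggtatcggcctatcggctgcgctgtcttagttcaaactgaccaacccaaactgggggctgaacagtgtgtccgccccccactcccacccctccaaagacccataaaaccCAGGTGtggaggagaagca
Cldn6 (chr17:23679115-23679364, plus strand): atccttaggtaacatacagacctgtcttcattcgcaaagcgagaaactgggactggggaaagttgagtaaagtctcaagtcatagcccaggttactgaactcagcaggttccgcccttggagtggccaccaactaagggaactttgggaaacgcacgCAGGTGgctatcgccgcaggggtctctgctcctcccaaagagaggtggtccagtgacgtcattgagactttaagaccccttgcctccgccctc
Cldn4 (chr5:134946935-134947184, minus strand): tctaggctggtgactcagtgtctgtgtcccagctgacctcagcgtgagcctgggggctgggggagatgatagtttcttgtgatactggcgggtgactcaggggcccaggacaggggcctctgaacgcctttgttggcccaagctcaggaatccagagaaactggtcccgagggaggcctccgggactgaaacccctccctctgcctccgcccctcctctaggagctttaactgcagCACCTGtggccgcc
Krt8 (chr15:102004343-102004592, minus strand): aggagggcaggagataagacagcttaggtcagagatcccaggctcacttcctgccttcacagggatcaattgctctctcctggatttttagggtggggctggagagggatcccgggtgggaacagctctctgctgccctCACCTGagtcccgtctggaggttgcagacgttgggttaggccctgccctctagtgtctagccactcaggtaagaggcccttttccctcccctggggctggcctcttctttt
Rab25 (chr3:88548280-88548529, minus strand): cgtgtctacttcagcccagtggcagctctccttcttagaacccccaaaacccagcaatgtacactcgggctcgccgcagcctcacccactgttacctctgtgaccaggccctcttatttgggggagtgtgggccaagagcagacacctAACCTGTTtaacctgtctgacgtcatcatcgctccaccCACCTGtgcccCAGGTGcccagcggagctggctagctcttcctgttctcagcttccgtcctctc
Ap1m2 (chr9:21312334-21312583, minus strand): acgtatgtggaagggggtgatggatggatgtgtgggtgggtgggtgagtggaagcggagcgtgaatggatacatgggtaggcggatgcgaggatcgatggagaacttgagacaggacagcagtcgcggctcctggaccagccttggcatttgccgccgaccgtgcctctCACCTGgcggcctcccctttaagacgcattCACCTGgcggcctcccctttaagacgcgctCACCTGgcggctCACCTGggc

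In Epcam the E-boxes begin 187 and 19 bases before the start, in Cldn4 the single one begins 14 bases before it, and Ap1m2 carries 4 within 81 bases. Lsr also carries 4 and Spint2 carries 3. The E-box was not only upstream of genes that differed: Krt5, Grhl3 and Lamb3, which stayed low in every library, hold it too. Cldn3, Cldn24, Dsp, Marveld2 and Spint1, which differed, do not hold it in this window.

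The libraries were checked by the targeted genes. Pou4f1 was at 146 in control, 188 in Isl1CKO, 16.6 in Pou4f1KO and 14.6 TPM in DKO; its low values fall on the 2 labels that name its knockout. TPM, transcripts per 1000000, is scaled for gene length. Isl1 was at 450, 854, 340 and 579 TPM in the same order and does not go with the labels Isl1CKO and DKO. A whole-gene value need not cover a deleted part, so these are called the libraries labelled Isl1CKO and DKO, and every direction drawn from them rests on the label. Depth was similar, with 13.6 to 16.6 gigabases aligned, so that 1 TPM stood for a mean coverage of 4.95 to 5.93. The ganglion's own genes were abundant in all 4 libraries: 15 cochleovestibular neuron markers summed to 2411 to 2923 TPM. The 39 epithelial genes summed to 761 TPM in control, 463 in the library labelled Isl1CKO, 189 in Pou4f1KO and 187 in the library labelled DKO.

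Of the 39 genes, 25 reached 5 TPM in some library, 8 reached only 1 to 5 TPM and 6 stayed under 1 TPM in all. A comparison used the 33 that reached 1 TPM. The measure was the log2 ratio of (TPM + 1), which understates differences of weakly expressed genes, and 2-fold in size was the limit for calling a gene higher or lower. In Pou4f1KO 28 of 33 members were at least 2-fold below control, against 1.73% of all 15049 genes compared. In the library labelled DKO 26 were below control by that much, against 2.34% of all genes. In the library labelled Isl1CKO 1 was (Arhgef38), against 0.618%. No member was 2-fold above control in any library, against 0.977%, 1.01% and 0.585% of all genes in the same order. Krt5, at 0.693 TPM in control, entered only through Pou4f1KO, and Ovol2 entered only through control, at 1.44 TPM. The 3 comparisons share the control library.

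**Figure D1:**
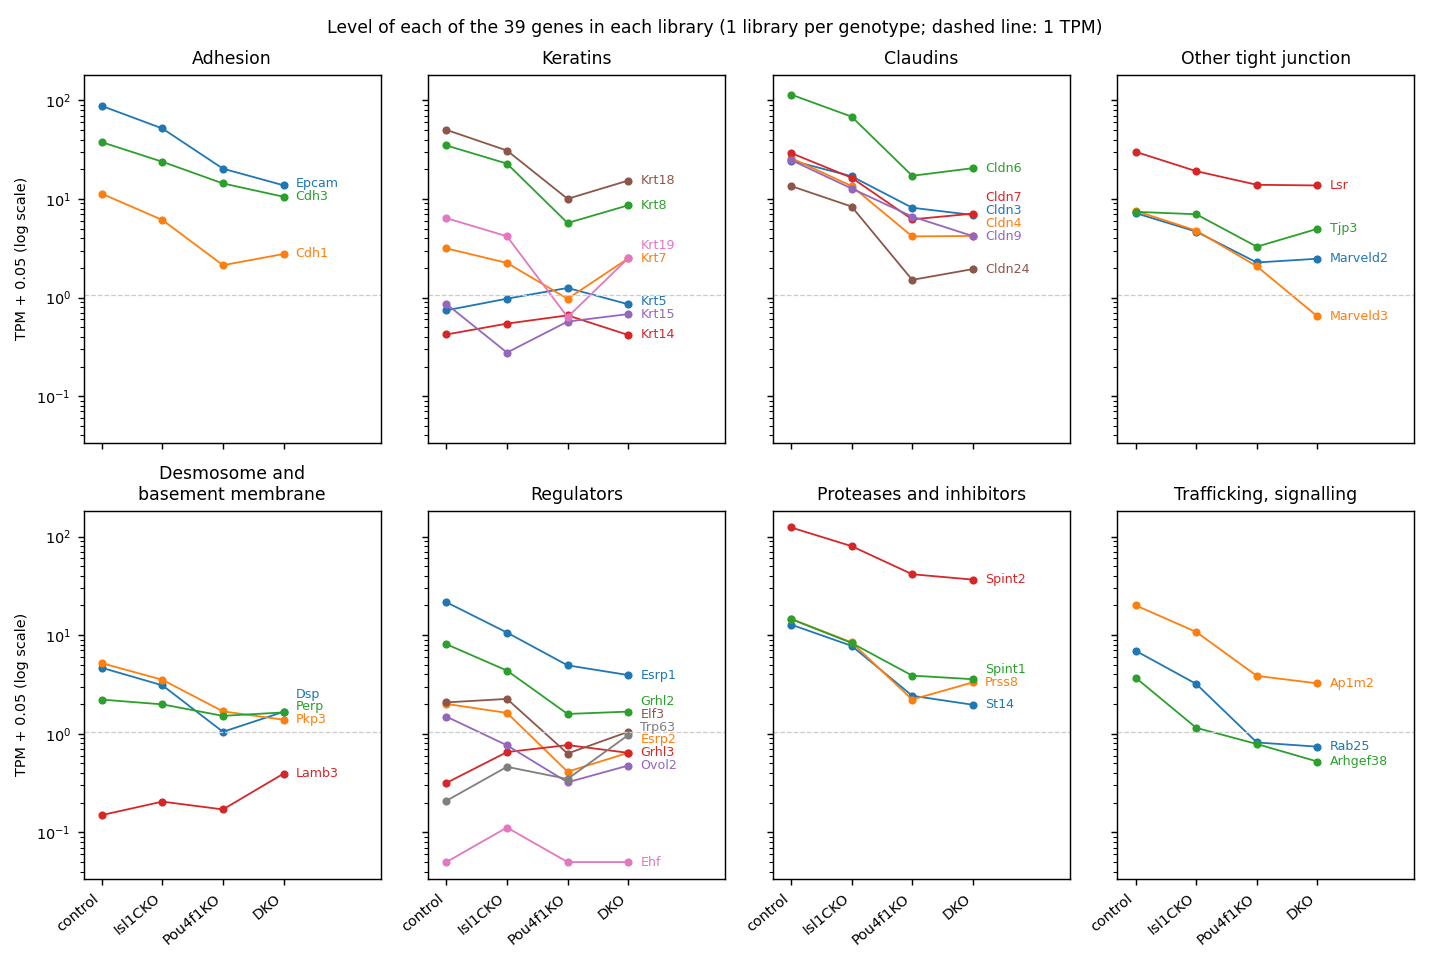
TPM (plus 0.05, log axis) of each of the 39 genes in the 4 libraries, in panels by role; lines join the values of 1 gene and do not imply an order of the genotypes. Most genes are highest in control and intermediate in Isl1CKO, while Krt5, Krt14, Krt15, Grhl3, Trp63, Lamb3 and Ehf lie near or under 1 TPM throughout.

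Adhesion molecules were among the most abundant members. Epcam, which encodes the epithelial adhesion molecule EpCAM (chromosome 17, 87635979 to 87651127, plus strand, up to 10 exons in GENCODE M21), was at 87.8 in control, 51.8 in Isl1CKO, 20.2 in Pou4f1KO and 13.7 TPM in DKO. Control was the highest and both libraries with the Pou4f1 label the lowest. The log2 ratio to control was −0.75, −2.06 and −2.59. Cdh1 (E-cadherin; chromosome 8, 106603350 to 106670247, plus strand, up to 17 exons) was at 11.2, 6.08, 2.08 and 2.72 TPM in the same order of libraries. Cdh3 (P-cadherin), which lies 46438 bases upstream on the same strand, was at 37.7, 23.8, 14.3 and 10.5 TPM. The P-cadherin gene thus stayed above the E-cadherin gene, and the quotient of their TPM was 3.35, 3.91, 6.88 and 3.86 in the same order of libraries. Log2 ratios of Cdh1 to control were −0.79, −1.99 and −1.72, and those of Cdh3 were −0.64, −1.34 and −1.75.

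Among keratins, the intermediate filament proteins of epithelia, the simple-epithelium pair accounted for most of the RNA. Krt8 (chromosome 15, 101996711 to 102004342, minus strand, up to 9 exons) was at 34.9 in control, 22.8 in Isl1CKO, 5.66 in Pou4f1KO and 8.58 TPM in DKO. Its partner Krt18, 23873 bases away on the other strand, was at 50.2, 30.9, 9.98 and 15.3 TPM. Both genes kept the same order of libraries, and their log2 ratios in Pou4f1KO were −2.43 and −2.22 and in DKO −1.90 and −1.65. The quotient of Krt8 to Krt18 was 0.69, 0.74, 0.57 and 0.56 in the same order of libraries. Krt19, another simple-epithelium keratin, was at 6.34, 4.13, 0.583 and 2.46 TPM, with log2 ratios of −0.52, −2.21 and −1.09. Krt7 was at 3.11, 2.20, 0.922 and 2.44 TPM and passed 2-fold in Pou4f1KO alone (−1.10, against −0.25 in DKO).

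All 4 of these keratin genes were higher in DKO than in Pou4f1KO, by log2 ratios of 1.13 (Krt19), 0.84 (Krt7), 0.57 (Krt18) and 0.52 (Krt8). Krt19 was the 1 member past 2-fold in that comparison, where 0.645% of all genes were higher. The keratins of stratified epithelia behaved otherwise. Krt5 was at 0.693 in control, 0.925 in Isl1CKO, 1.20 in Pou4f1KO and 0.806 TPM in DKO, and Krt14 and Krt15 stayed between 0.227 and 0.812 TPM. Together with Trp63, Grhl3 and Lamb3, the 3 stratified keratins summed to 2.40 TPM in control and 2.82, 3.47 and 3.66 TPM in the mutant libraries. Their values are low: mean coverage per base was about 5 at 1 TPM, and for Trp63 less than its TPM implies. No read counts were used, so their sampling error is unknown. The 50-base words of Krt8 occur to 26.9% in a pseudogene (Krt8-ps), and those of Krt14 and Krt5 to 14.4% and 8.52% in other genes, mainly Krt16 and Krt6a. The labels and notes do not say how such reads were assigned.

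Claudins are the membrane proteins that seal tight junctions. Of 6 members, 6 were at least 2-fold below control in Pou4f1KO and in DKO, against 1.73% and 2.34% of all genes. In DKO against Isl1CKO 6 of 6 were lower, against 1.23% of all genes. Cldn6, a claudin of embryonic epithelia (chromosome 17, 23679365 to 23682446, plus strand, up to 3 exons), was at 115 in control, 68.3 in Isl1CKO, 17.1 in Pou4f1KO and 20.5 TPM in DKO. Cldn9, a claudin of the inner ear, lies 137 bases beyond it on the other strand and was at 24.8, 12.7, 6.58 and 4.15 TPM. The neighbours thus shared the high value in control, but the quotient of Cldn6 to Cldn9 was 4.62, 5.37, 2.60 and 4.93 in the same order of libraries. A further neighbouring pair on chromosome 5, with 39279 bases between them, was Cldn4 at 26.0, 13.5, 4.13 and 4.17 TPM and Cldn3 at 24.5, 16.9, 8.10 and 6.84 TPM. Cldn4 was thus the lower of the 2 in every mutant library. Cldn7, a claudin of many epithelia, was at 29.2, 16.4, 6.16 and 7.04 TPM. The log2 ratios of these 5 claudins to control ran from −0.51 to −0.91 in Isl1CKO, from −1.49 (Cldn3) to −2.67 (Cldn6) in Pou4f1KO and from −1.70 (Cldn3) to −2.43 (Cldn6) in DKO.

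Cldn24 was at 13.5 in control, 8.33 in Isl1CKO, 1.46 in Pou4f1KO and 1.89 TPM in DKO, with log2 ratios of −0.63, −2.56 and −2.32. It has 1 exon of 663 bases (chromosome 8, 47822143 to 47822805, plus strand), and 68.9% of its 50-base words also occur in Cldn22, so its own share is uncertain. The sum of both genes was 23.1, 15.6, 2.97 and 3.40 TPM, with log2 ratios of −0.54, −2.60 and −2.45, in the same order of libraries. Cldn6 made up 49.3% of the summed TPM of the 6 claudins in control, 50.2% in Isl1CKO, 39.3% in Pou4f1KO, with 45.9% in DKO. The claudin sum was 58.5%, 18.7% and 19.2% of control in the 3 mutant libraries, and the keratin sum was 64.0%, 20.2% and 31.8%.

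Of the 4 other tight junction members, 3 were past 2-fold below control in Pou4f1KO and in DKO, against 1.73% and 2.34% of all genes. Lsr, which encodes angulin-1 of tricellular contacts, was at 30.0 in control, 19.1 in Isl1CKO, 13.9 in Pou4f1KO and 13.7 TPM in DKO, with log2 ratios of −0.63, −1.06 and −1.08. Marveld2, which encodes tricellulin, was at 7.14, 4.61, 2.22 and 2.43 TPM (−0.54, −1.34 and −1.25). Both components of tricellular junctions were therefore past 2-fold below control in Pou4f1KO and in DKO, by small margins for Lsr. Tjp3, the scaffold ZO-3, was at 7.36, 6.95, 3.23 and 4.93 TPM and passed 2-fold in neither (−0.98 and −0.49), though with 0.1 added it was at −1.16 in Pou4f1KO. Marveld3, a relative of occludin, was at 7.52, 4.73, 2.03 and 0.594 TPM, with log2 ratios of −0.57, −1.49 and −2.42. Its deposited coverage was only 24.8% to 26.1% of that implied by its TPM, and on coverage the ratios were −0.36, −0.91 and −1.32, so its call in Pou4f1KO was lost.

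Desmosome genes had lower levels. Pkp3 (plakophilin-3) was at 5.15 in control, 3.48 in Isl1CKO, 1.64 in Pou4f1KO and 1.34 TPM in DKO, with log2 ratios of −0.46, −1.22 and −1.40. Dsp (desmoplakin), which ties keratins to desmosomes, was at 4.62, 3.05, 0.997 and 1.62 TPM (−0.47, −1.49 and −1.10). Both genes lay past 2-fold below control in the 2 libraries with the Pou4f1 label. Perp, a p63 target of desmosomes, was at 2.17, 1.94, 1.47 and 1.60 TPM and did not pass 2-fold. Lamb3, a laminin-332 chain of the epidermal basement membrane, stayed between 0.0997 and 0.344 TPM.

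The membrane protease system was lower as a whole. Of 4 members, 4 were past 2-fold below control in Pou4f1KO and in DKO, against 1.73% and 2.34% of all genes. In DKO against Isl1CKO 4 of 4 were lower, against 1.23% of all genes. St14 (matriptase) was at 12.7 in control, 7.74 in Isl1CKO, 2.38 in Pou4f1KO and 1.92 TPM in DKO. Prss8 (prostasin), the protease that works with matriptase, was at 14.6, 8.40, 2.17 and 3.27 TPM. Spint1, which encodes their inhibitor HAI-1, was at 14.5, 8.28, 3.84 and 3.53 TPM. All 3 were highest in control and second in Isl1CKO, while the quotient of St14 to Spint1 was 0.88, 0.93, 0.62 and 0.54 in the same order of libraries. Spint2 (HAI-2) was the most abundant of the 39 genes, at 124, 79.9, 41.4 and 36.5 TPM. Its log2 ratios were −0.62, −1.55 and −1.73, against −0.65, −2.02 and −2.24 for St14 and −0.73, −2.30 and −1.87 for Prss8.

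Regulators included genes at low levels. Esrp1, the epithelial splicing regulator, was at 21.5 in control, 10.6 in Isl1CKO, 4.89 in Pou4f1KO and 3.89 TPM in DKO, with log2 ratios of −0.96, −1.94 and −2.21. Grhl2, the grainyhead-like activator of junction genes, was at 8.05, 4.32, 1.54 and 1.63 TPM (−0.77, −1.83 and −1.78). Each was highest in control and at similar levels in the 2 libraries with the Pou4f1 label. Esrp2 was at 1.96, 1.58, 0.362 and 0.591 TPM and passed 2-fold in Pou4f1KO alone (−1.12, against −0.89 in DKO). Ovol2, a zinc-finger repressor of mesenchymal genes, was at 1.44, 0.714, 0.272 and 0.426 TPM, and the ETS factor gene Elf3 at 2.03, 2.21, 0.580 and 0.997 TPM. Both were at −0.94 in Pou4f1KO, short of 2-fold, but this rests on the added 1 TPM: with 0.1 added, Ovol2 was at −2.05 and Elf3 at −1.65. In DKO, Esrp2 and Ovol2 were then at −1.57 and −1.55. Trp63, Grhl3 and Ehf did not reach 1 TPM: Trp63 (p63) was highest in DKO at 0.919 TPM, with a deposited coverage of 15.8% to 20.3% of that implied by its TPM, Grhl3 lay between 0.267 and 0.718, and Ehf was listed at 0 in 3 libraries and at 0.0620 in Isl1CKO.

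Trafficking and signalling genes were lower too, 3 of 3 past 2-fold in Pou4f1KO and in DKO, against 1.73% and 2.34% of all genes. Rab25, the Rab11-family GTPase of apical recycling in epithelia, was at 6.90 in control, 3.15 in Isl1CKO, 0.767 in Pou4f1KO and 0.689 TPM in DKO. Ap1m2, the epithelial clathrin adaptor subunit that sorts proteins to the basolateral membrane, was at 20.02, 10.7, 3.81 and 3.19 TPM. Their log2 ratios were −0.93, −2.16 and −2.22 for Rab25 and −0.84, −2.13 and −2.33 for Ap1m2, below the medians of the members in each library. Arhgef38 was at 3.65, 1.10, 0.737 and 0.473 TPM. It was the 1 member past 2-fold below control in Isl1CKO (−1.15), with −1.42 in Pou4f1KO and −1.66 in DKO.

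**Figure D2:**
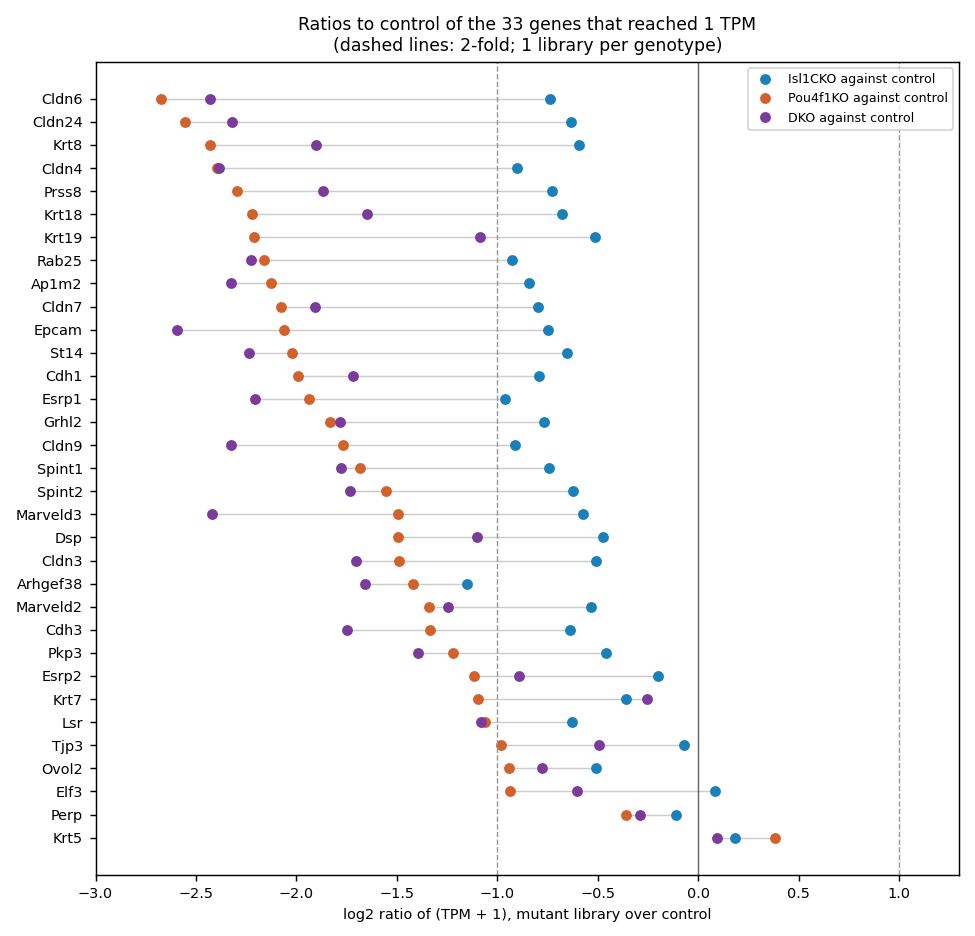
Log2 ratio of (TPM + 1) of each mutant library over control for the 33 genes that reached 1 TPM, ordered by the ratio in Pou4f1KO; dashed lines mark 2-fold. The Isl1CKO points lie between −1.15 and 0.19, and in Pou4f1KO 28 genes and in DKO 26 genes lie past the lower line.

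The 25 members that reached 5 TPM were alike in order: each was highest in control, second in the library labelled Isl1CKO and lower in both others, as were 12% of all genes at that level. For 6 of them (Krt19, Marveld2, Marveld3, Pkp3, Grhl2 and Rab25) control alone reached 5 TPM, so that its first place was set by the choice, and 19 reached it in another library too. Over the 33 compared members 30 had that order, against 12% of all genes. Among these Ovol2 reached 1 TPM in control alone, so its first place there and its lower values elsewhere were set by the filter. In Isl1CKO 31 of 33 members lay below control by any amount, against 56.5% of all genes, with a median log2 ratio of −0.63 beside −0.02 over all genes. Among the 25 the ratio in Isl1CKO ran from −0.96 to −0.07, with an SD over genes of 0.19. With the limit at 1.5-fold, 20 of the 33 were lower in Isl1CKO, against 3.26% of all genes. Medians of the 33 were −1.68 in Pou4f1KO and −1.73 in DKO, beside 0.02 and −0.01 over all genes.

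Levels of members in the 2 libraries with the Pou4f1 label differed little as a set. Of 33 members 18 were lowest in Pou4f1KO and 14 in DKO, and Krt5 was lowest in control. In DKO against Pou4f1KO 0 members were 2-fold lower, against 1.12% of all genes, and 1 was higher (Krt19). The median was 0.05 over the 33 and −0.02 over the 25 that reached 5 TPM, so its sign depends on the weakly expressed genes. Marveld3 (−0.93), Cldn9 (−0.56) and Epcam (−0.53) stood at the lower end and the simple-epithelium keratins at the upper end.

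Each label could be read in 2 pairs of libraries that share none. For the Pou4f1 label, Pou4f1KO against control was set beside DKO against the library labelled Isl1CKO. In both pairs 18 of 33 members were at least 2-fold lower, against 0.711% of all genes, and 10 more were so in the first pair alone. The second pair by itself had 18 lower members, against 1.23% of all genes, and 0 higher, against 0.87%. The ratio was more negative in the first pair for 31 of the 33, with medians of −1.68 and −1.04. Epcam, for example, had log2 ratios of −2.06 and −1.84, Cldn6 of −2.67 and −1.69, Krt8 of −2.43 and −1.31 and Krt19 of −2.21 and −0.57. Marveld3 (−1.49 and −1.85) and Krt5 (0.38 and −0.09) were the 2 exceptions. Across the 33 members Pearson's r between the pairs was 0.74, and across all 15049 genes it was 0.42. The points are genes of the same 4 libraries, and weakly expressed genes are drawn towards 0 in both.

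For the Isl1 label, Isl1CKO against control was set beside DKO against Pou4f1KO. No member was 2-fold lower in both pairs, against 0.213% of all genes. The first pair had a median of −0.63, and the second of 0.05, with 15 of 33 members below 0. Epcam was lower in both (−0.75 and −0.53), as was Cldn9 (−0.91 and −0.56), whereas Krt18 was lower in the first (−0.68) and higher in the second (0.57). The departure from additivity is the log2 ratio of DKO to control minus the sum of both single ratios. It equals the difference between the 2 Pou4f1-label ratios, so it restates their count of 31 of 33, which compares with 47.7% of all genes above 0. Its median was 0.65, and 6 members were at 1 or more, against 1.41% of all genes, the highest being Krt19 (1.64), Krt18 (1.25) and Krt7 (1.20). With 1 library each this difference was not tested.

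**Figure D3:**
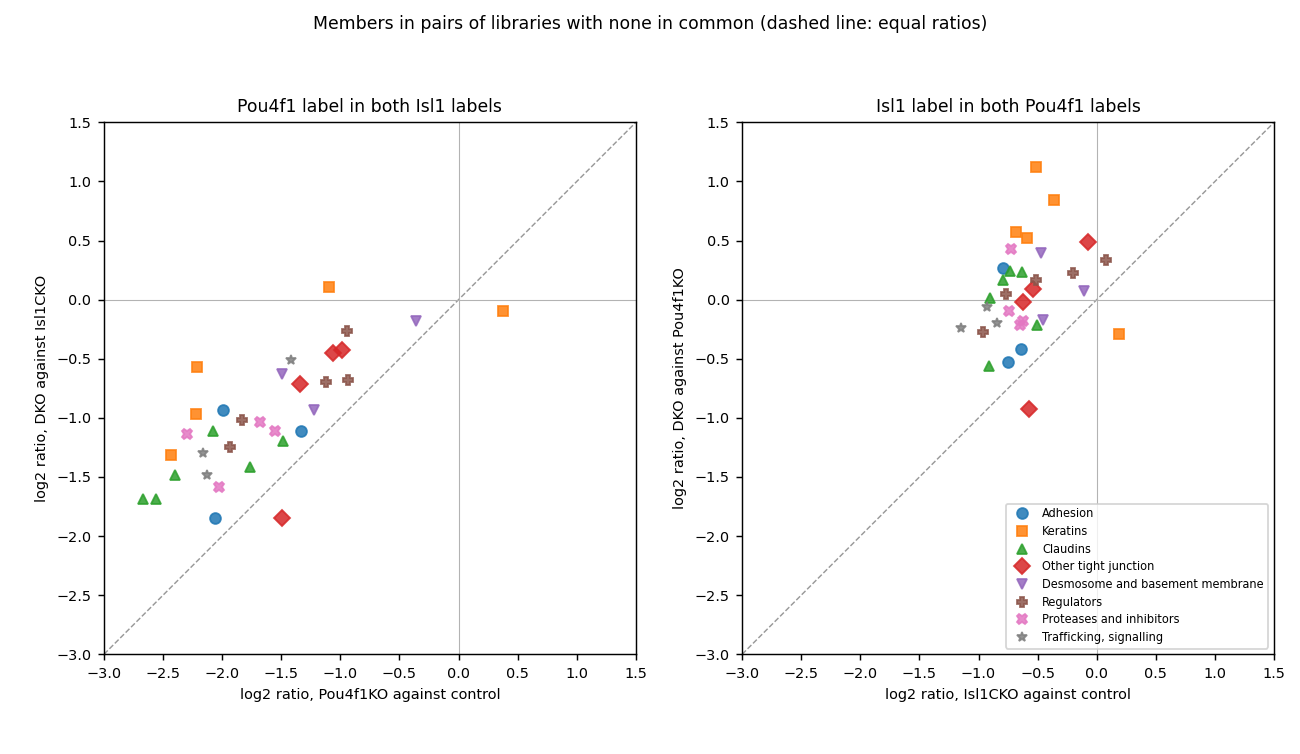
Log2 ratios of the 33 members in pairs of libraries with none in common, Pou4f1KO against control and DKO against Isl1CKO on the left, Isl1CKO against control and DKO against Pou4f1KO on the right; symbols mark the role of a gene and the dashed line equal ratios. On the left 31 points lie above the line, and on the right the ordinate scatters around 0 with 4 keratins on top and Krt5 apart from them.

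The remaining epithelial genes were taken from 4 lists. Of 21 other tight junction genes that reached 1 TPM, 5 were at least 2-fold below control in Pou4f1KO, 5 in DKO and 0 above in either. Over all genes 1.73% were lower in Pou4f1KO and 2.34% in DKO. Crb3, an apical polarity gene, was at 9.26 in control, 6.41 in Isl1CKO, 1.71 in Pou4f1KO and 1.94 TPM in DKO, with log2 ratios of −1.92 and −1.80 in the last 2. Ocln (occludin) was at 7.55, 4.46, 2.19 and 2.35 TPM (−1.42 and −1.35), F11r (JAM-A) at −1.41 and −0.80 and Llgl2 at −1.28 and −1.36. The others past 2-fold, named after their values were seen, were Patj in both (−1.10 and −1.22) and Ildr1 in DKO (−1.21). The list median was −0.48 in Pou4f1KO and −0.31 in DKO, and Cldn5, the endothelial claudin, was at 10.5, 6.23, 12.6 and 15.1 TPM. Of 19 other adherens, desmosome and hemidesmosome genes 3 were lower in each, with Lama5 (laminin alpha-5) at −1.22 and −1.26, and medians of −0.19 and −0.18; Dsg2 and Ppl were the others. Pkp2 was at −0.72 and −0.93, Dst at 0.14 and −0.52 and Nectin2 at −0.46 and −0.28. Of 12 other regulators and surface genes 3 were lower in each, with Epn3 at −1.53 and −1.74 beside Cdcp1 and Bspry, while Tfap2a was at 0.85 and 0.30. Only 3 of 14 other keratins reached 1 TPM, none of them past 2-fold, and Krt10 was at 7.35, 7.54, 7.15 and 7.09 TPM. The others, Krt23 and Krt1, are named after their values were seen. Krt23 was at 1.34, 0.395, 0.271 and 0.255 TPM. With 1 TPM added its log2 ratios were −0.88 in Pou4f1KO and −0.90 in DKO, and it reached 1 TPM in control alone. Krt1 reached 1 TPM in Pou4f1KO alone, at 1.14.

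Of 20 genes of the mesenchymal state 0 were past 2-fold in Pou4f1KO or DKO against control, with medians of −0.17 and 0.31, and 1 was lower in Isl1CKO (Prrx2, −1.04; median −0.50). In DKO against Isl1CKO 5 of the 20 passed 2-fold upwards and 0 downwards (median 0.75), where the members had 18 of 33 lower and a median of −1.04. In DKO against Pou4f1KO 3 passed upwards and 0 downwards (median 0.46). Over all genes 0.87% were higher in DKO against Isl1CKO and 0.645% in DKO against Pou4f1KO. Of the repressors of epithelial genes, named here after their values were seen apart from Snai1, Zeb1 was at 64.9 in control, 76.3 in Isl1CKO, 83.4 in Pou4f1KO and 83.6 TPM in DKO. Zeb2 was at 113, 135, 141 and 141 TPM, Snai1 at 6.39, 3.91, 2.89 and 7.97 and Snai2 at 7.35, 5.14, 6.18 and 7.38. Both Zeb genes were higher in the 3 mutant libraries by log2 ratios of 0.23 to 0.36, short of 2-fold. In Pou4f1KO Zeb1 was at 0.36 and Zeb2 at 0.31, beside a median of 0.30 for pan-neuronal genes. The pan-neuronal medians were 0.07 in Isl1CKO and 0.16 in DKO, where Zeb1 was at 0.23 and 0.36 and Zeb2 at 0.25 and 0.31. Scaling the libraries to the pan-neuronal genes moved the median of all genes from 0.02 to −0.26 in Pou4f1KO and from −0.01 to −0.16 in DKO.

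Among markers of neighbouring tissues, the otic epithelium list was lower with the members. Of 24 otic epithelium markers 13 were at least 2-fold below control in Pou4f1KO and 1 above, with a median of −1.16, and 12 were below and 1 above in DKO, with a median of −1.04. Over all genes 1.73% were lower and 0.977% higher in Pou4f1KO, and 2.34% and 1.01% in DKO. The summed level of the otic markers was 1167 in control, 937 in Isl1CKO, 960 in Pou4f1KO and 817 TPM in DKO. The otoconial protein gene Oc90 was at 128, 115, 12.8 and 35.0 TPM, and Lmx1a at 36.5, 18.1, 6.26 and 7.97 TPM. Hmx3, at 13.4, 8.30, 2.79 and 0.593 TPM, and Otol1, at 88.4, 35.4, 25.5 and 11.8 TPM, were lowest in DKO. Oc90 was, like the simple-epithelium keratins, higher in DKO than in Pou4f1KO (1.39).

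Surface ectoderm markers were scarce, with 10 genes summing to 22.5 in control, 17.8 in Isl1CKO, 20.6 in Pou4f1KO and 13.9 TPM in DKO, and 6 of the 10 also stand on the lists of other keratins and regulators. Dlx3 was at 5.64, 3.27, 2.13 and 1.63 TPM. Pharyngeal endoderm markers summed to 4.26 to 10.7 TPM, with Nkx2-1 listed at 0 in 3 libraries. Of the 5 that reached 1 TPM, 2 were past 2-fold above control in DKO and 1 below, against 1.01% and 2.34% of all genes. These are named after their values were seen. Pax1 and Pax9 were highest in DKO, at 1.92 and 2.03 TPM, with control at 0.363 and 0.342. Shh went the other way, at 3.66 in control, 0.987 in Isl1CKO, 0.906 in Pou4f1KO and 0.926 TPM in DKO. Pax1 and Pax9 reached 1 TPM in DKO alone and Shh in control alone. The direction of each against control was therefore set by the filter. Pan-neuronal genes had medians of 0.07, 0.30 and 0.16 against control in Isl1CKO, Pou4f1KO and DKO, and glial genes of −0.09, 0.30 and 0.15. Endothelial genes had medians of −0.45, −0.08 and 0.29, in Isl1CKO near the −0.50 of the mesenchymal list and the −0.63 of the members. The neural tube list had 11 of 15 genes past 2-fold above control in Pou4f1KO and 2 in DKO, against 0.977% and 1.01% of all genes. Several of these genes, among them Olig3, Atoh1, Msx3 and Pax6, reached 1 TPM in Pou4f1KO alone, so their direction there was set by the filter. The part of tissue content in the members' ratios was not tested.

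**Figure D4:**
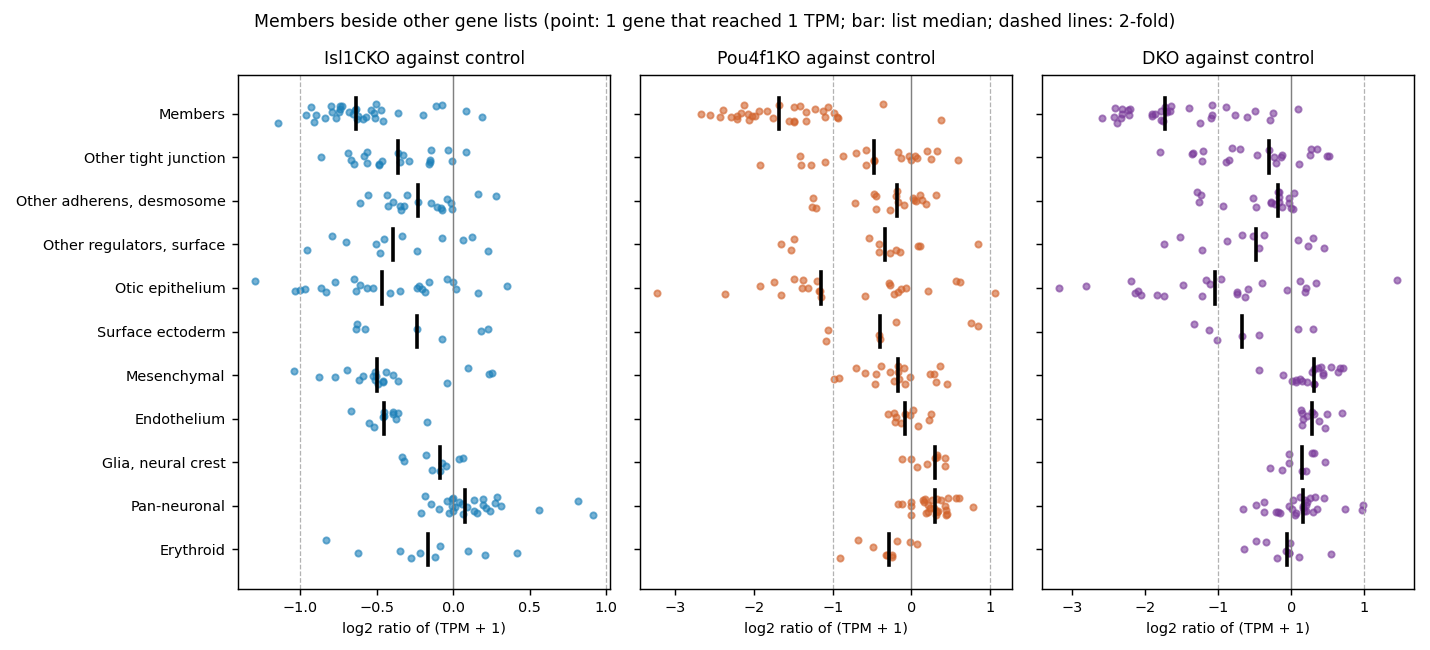
Log2 ratios of (TPM + 1) to control in the 3 mutant libraries for the members and for 10 other gene lists, with 1 point per gene that reached 1 TPM and a bar at the list median. Member medians are −0.63, −1.68 and −1.73; the otic epithelium list lies nearest to them in Pou4f1KO and DKO, at −1.16 and −1.04.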

How the data were processed

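RNA was measured in 4 CVG libraries, 1 per genotype. Per the submitters' processing notes, Trimmomatic, FastQC, HISAT2, SAMtools and StringTie were used with genome build mm10; versions, settings and annotation were not given there. The authors deposited TPM, which sums to 1000000 per library, FPKM, which is TPM times a constant per library, and coverage, the unscaled mean read depth of a gene, per the file headers and values. No counts were used, so no interval could be given.

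Rows sharing a symbol were summed. Genes reaching 1 TPM in at least 1 library (15049) were compared by log2 ratios of (TPM + 1) with a 2-fold limit. No p-value was computed. The ratio step was tested on simulated data. Python 3.11.15, pandas 2.3.3 and matplotlib 3.10.9 were used. Coordinates are mm10; all 39 members matched GENCODE M21 genes on the same strand. Cldn3, Tjp3, Esrp2, Grhl2 and Prss8 overlap a gene on the other strand; the library kit was strand-specific.

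The members, lists and alternatives were chosen with earlier results of these data known. Members reaching 5 TPM in a library are given in every library. For other lists the rule allowed up to 4 genes, those with the largest ratio in Pou4f1KO or DKO against control among genes at 5 TPM. Not every gene under the rule is named. Genes named beyond it, some of them under 5 TPM, were picked after their values were seen. Alternatives varied the pseudocount, filter, unit, scaling, row handling and limit.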

Additional observations from a re-analysis of the deposited data

How the results depend on the processing

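No paired analysis was possible because each genotype has 1 library, and no library could be left out. The counts of members past 2-fold in Pou4f1KO (28) and DKO (26) against control stayed within 1.5 times, and medians within 1.5-fold, under the 11 alternatives run. For Isl1CKO the count of 1 became 3 with a pseudocount of 0.1, 0 with a pseudocount of 5, a minimum of 5 TPM or FPKM, 2 with pan-neuronal scaling and 20 with the 1.5-fold limit. For DKO against Pou4f1KO the count of 1 became 3 with a pseudocount of 0.1, 0 with a pseudocount of 5 or FPKM, and 3 with the 1.5-fold limit. A pseudocount of 5 reduced both the count for DKO against Isl1CKO and the count lower in both Pou4f1-label pairs from 18 to 5; larger pseudocounts pull low genes towards 0 by construction. Pan-neuronal scaling shifted the median of all genes to −0.26 in Pou4f1KO, where the members' median became −1.92, and to 0.11 in DKO against Pou4f1KO. It changed the split of all genes in Pou4f1KO from 260 lower and 147 higher to 386 and 97. Over all genes the 260 lower in Pou4f1KO and 352 in DKO became 469 and 605 with a pseudocount of 0.1, 87 and 127 with 5, and 138 and 186 on FPKM. No call changed direction. Scaling changed the sign of Lsr and Spint1 in DKO against Pou4f1KO. Coverage in place of TPM was added after seeing the data and moved Marveld3 under 2-fold in Pou4f1KO (−0.91) and in DKO against Isl1CKO (−0.96). Without counts the sampling error of genes near 1 TPM is unknown.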

Other observations

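Genes outside the set with a similar profile were sought after the members' values were seen. The search covered 11407 genes reaching 5 TPM, fewer than the 12099 that did so in some library. The distance was taken between the 3 log2 ratios to control and median ratios of members. These were the medians of the 25 members that reached 5 TPM (−0.68, −1.99 and −1.87). The closest were Lad1, which encodes the basement membrane protein ladinin, at 7.06 in control, 3.97 in Isl1CKO, 0.991 in Pou4f1KO and 1.201 TPM in DKO, and Wfdc2, a secreted epithelial protein gene, at 53.7, 30.5, 12.4 and 14.2 TPM. Next came the exchange factor gene Arhgef19 at 21.4, 11.97, 4.65 and 4.71 TPM. The 12 closest also held Crb3, Mapk13, Mpzl2, Grb7, Kdf1, Slc27a2, Emx2, Cldn22 and Vwa2. Of the 50-base words of the member Cldn24, 68.9% occur in Cldn22, so the profile of Cldn22 may not be separate from that member's. Kdf1, a keratinocyte differentiation gene, was at 5.73, 2.64, 0.489 and 0.995 TPM, and the homeobox gene Emx2 at 7.997, 3.56, 1.06 and 1.19 TPM. Several are known from epithelia, and Crb3 alone among them stood on a list used here. The profile was fitted to the members themselves, so the match is a description.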
